A study of Mus musculus with 72 samples.

Results

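Among 72 Illumina MouseRef-8 arrays of mouse adipose tissue, 43 carried a strong signal of Ucp1, the uncoupling protein that marks brown fat (above 11 on the log2 scale), and 11 of these had a low signal of Pnpla2 together with a kept signal of Lipe. Pnpla2 encodes ATGL and Lipe encodes HSL. The 11 arrays had Pnpla2 below 12 and Lipe at 8.5 or more, and they are called Pnpla2-low here. They are set against 13 brown arrays with Pnpla2 at 12 or more and Lipe at 8.5 or more, called Pnpla2-high. Of the other brown arrays, 12 had Pnpla2 at 12 or more with Lipe under 8.5 (Lipe-low) and 7 were low in both lipases, while 29 of the 72 arrays had Ucp1 at 11 or less. The arrays were taken by these signals and not by their labels, so what separates the sets is described below without a test, and tests are given only between labelled groups.

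The study deleted the lipases in adipose tissue with Cre driven by the Fabp4 promoter: ATGL alone (ATGLAKO), HSL alone (HSLAKO) or both (DAKO, from crosses of the single knockouts). Control mice carried the Cre transgene (their titles read wildtype). Each targeted allele was crossed to C57BL/6J for at least 8 generations. The Lipe allele had been made in embryonic stem cells of another mouse strain. HSLAKO mice were homozygous for a Lipe allele with floxed exon 1, and each array is labelled as brown (BAT) or white adipose tissue (WAT) of 1 genotype at 3, 7, 12 or 14 months. Of the 11 Pnpla2-low arrays, 7 are labelled DAKO (BAT at 3 months replicate 5, at 7 months replicates 1 and 2, at 14 months replicates 1, 2 and 3, and WAT at 3 months replicate 4), 2 ATGLAKO (BAT at 3 months replicate 3 and at 12 months replicate 3), 1 HSLAKO (WAT at 3 months replicate 4) and 1 Control (WAT at 3 months replicate 3). The paper names 14 months as its late tumor stage, a label that 3 of these 11 arrays carry and no Pnpla2-high array does. The 13 Pnpla2-high arrays comprise all 5 labelled Control BAT at 3 months, 1 labelled Control WAT, 6 labelled ATGLAKO BAT (2 each at 3, 7 and 12 months) and 1 labelled ATGLAKO WAT at 3 months. The 12 Lipe-low arrays are labelled HSLAKO (7) or DAKO (5), at 3, 7 or 12 months. The 7 arrays low in both lipases are labelled HSLAKO (3), DAKO (2) or ATGLAKO (2), all at 3 months. Both of these sets hold BAT and WAT labels. Thus the labels and the lipase signals went different ways on many arrays. The arrays labelled DAKO on the Pnpla2-low side kept Lipe, 7 of the 13 Pnpla2-high arrays are labelled ATGLAKO, and 3 Pnpla2-low arrays are labelled WAT although their Ucp1 was at 13.29, 13.40 and 13.46, against 13.37 to 13.86 on the 8 labelled BAT. In the sample names, the arrays labelled DAKO BAT 3 months replicate 5 and DAKO WAT 3 months replicate 4, both Pnpla2-low, carry the same animal number. A Pnpla2-low array (labelled Control WAT 3 months replicate 3) and a Pnpla2-high one (labelled Control BAT 3 months replicate 1) also share a number, apart from a leading A in the name of the BAT array. A further 2 Pnpla2-low arrays share one with an array outside both sets. Of these, HSLAKO WAT 3 months replicate 4 does so exactly and ATGLAKO BAT 3 months replicate 3 apart from a leading A. The arrays may therefore not all be separate animals.

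Lipolysis releases fatty acids from stored triglyceride. ATGL takes off the first fatty acid, with the coactivator ABHD5 and the inhibitor G0S2, HSL cleaves the diglyceride and monoglyceride lipase (Mgll) finishes the cleavage, while perilipins on the droplet surface hold the lipases in check. In brown fat the released fatty acids feed mitochondrial oxidation and heat production by UCP1, and they also serve as signals for PPAR receptors, which control genes of fatty acid oxidation. Adipose macrophages gather around dying or overloaded adipocytes and take up their lipid, with Trem2, Gpnmb and Lgals3 among the genes they express.

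The values that chose the arrays were as follows. Pnpla2 had a lowest, median and highest signal of 10.29, 10.94 and 11.32 on the Pnpla2-low arrays, against 12.85, 13.18 and 13.31 on the Pnpla2-high arrays. Lipe was at 8.69, 9.12 and 9.52 on the Pnpla2-low arrays and at 9.27, 9.77 and 10.37 on the Pnpla2-high arrays, so that its ranges overlapped. Ucp1 lay between 13.29 and 13.86 on Pnpla2-low arrays and between 13.23 and 13.89 on Pnpla2-high arrays, nearly the same range. A second Lipe probe, which the rule did not use, read 6.83 to 7.60 on Pnpla2-low arrays, 7.45 to 8.42 on Pnpla2-high arrays and 5.24 to 6.39 on Lipe-low arrays. Nearest to the limits, the array labelled DAKO BAT 7 months replicate 2 was inside with Lipe at 8.69, and the arrays labelled ATGLAKO BAT 3 months replicates 4 and 5 were outside with Lipe at 8.32 and 8.33 and Pnpla2 at 11.67 and 11.95. On the other side, the array labelled HSLAKO BAT 7 months replicate 4 was left out of the Pnpla2-high set with Lipe at 8.47. Where the Pnpla2 and Lipe probes lie relative to the deleted exons is not given in the sources used here, so a kept signal does not show a kept protein.

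**Figure D1:**
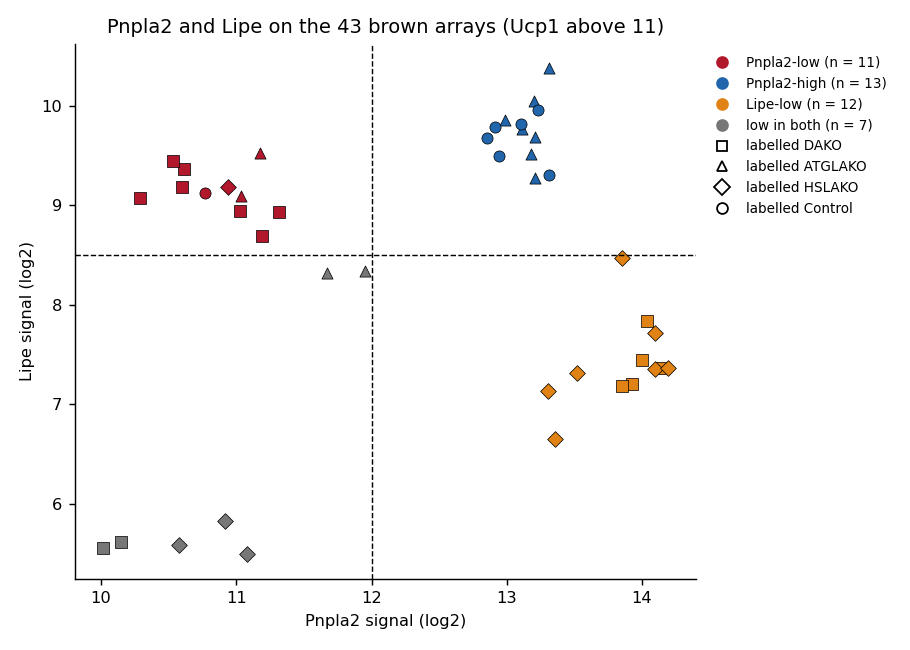
Lipe signal (log2, y axis) against Pnpla2 signal (log2, x axis) on the 43 brown arrays, colored by set, with the shape of each point giving the labelled genotype and dashed lines the limits at 12 and 8.5. The 11 Pnpla2-low arrays form a cloud at Pnpla2 10.29 to 11.32, made up of square (DAKO), triangular (ATGLAKO), diamond (HSLAKO) and round (Control) points.

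Over the 12265 genes measured, 308 (2.51%) were higher on the Pnpla2-low arrays, with no overlap between the sets and medians more than 1 apart on the log2 scale, and 41 (0.334%) were lower by the same rule. All of these genes stand on the contrast that chose the arrays, so the counts are descriptions. The difference of the medians over all genes had a median of -0.02. Without the minimum difference, 421 genes were higher and 146 lower with no overlap. All 11 Pnpla2-low arrays were more like one another than like the other set: each had a median Pearson correlation over the tested genes of 0.968 to 0.987 with the other Pnpla2-low arrays and of 0.938 to 0.963 with the Pnpla2-high arrays, whatever its label.

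Both counts depended on how the signals were processed. The Pnpla2-low arrays had median raw signals of 98.6 to 112.7 and 47.4 to 50.3% of probes above background, against 96.7 to 104.2 and 45.0 to 48.3% on the Pnpla2-high arrays, and the part of this in the counts was not tested. When arrays were scaled to a common median in place of quantiles, 304 of the 308 higher genes still did not overlap, but only 14 of the 41 lower genes. With the authors' normalized values and without background correction all 308 and all 41 still did not overlap, but 93 and 141 of the higher genes and 4 and 8 of the lower genes kept a median difference over 1. Lower genes that overlapped under a common median are named as such below.

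Genes of macrophages were the highest on the Pnpla2-low arrays. Gpnmb, a transmembrane glycoprotein of lipid-laden macrophages, had a lowest, median and highest signal of 11.25, 12.20 and 13.02 on Pnpla2-low arrays, against 5.81, 7.22 and 9.27 on Pnpla2-high arrays, a ratio of the medians of 31.6-fold. Its 3 other probes were above background on all 11 Pnpla2-low arrays and on 0 of the 13 Pnpla2-high arrays. The paper holds it likely that Gpnmb in DAKO mice comes from adipocytes, with a part perhaps from macrophages. Lgals3, the lectin galectin-3, was at 12.51, 13.09 and 13.43 on Pnpla2-low arrays and at 8.02, 9.05 and 10.04 on Pnpla2-high arrays (16.3-fold). Trem2, a lipid-sensing receptor, was at 8.11, 8.95 and 9.72 on Pnpla2-low arrays, against 4.49, 4.92 and 6.53 on Pnpla2-high arrays, where it was above background on 7 of 13. Mmp12, the macrophage elastase, read 7.62, 8.52 and 9.32 on Pnpla2-low arrays and 4.21, 4.44 and 7.27 on Pnpla2-high arrays, with 1 of these 13 above background. Thus every Pnpla2-low array, including those labelled Control, HSLAKO and WAT, stood above every Pnpla2-high array in all 4 genes. Of the 14 measured genes of lipid-associated macrophages, 6 were counted as higher, the others being Ctsk and Cd63 (median differences 2.41 and 1.73), and the list had a median difference of 1.01 where all genes had -0.02.

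General macrophage markers went the same way, with 8 of 9 counted as higher and a list median of 2.45. Adgre1, an adhesion receptor used to mark mouse macrophages, was at 8.09, 8.87 and 9.53 on Pnpla2-low arrays, against 5.14, 5.91 and 7.09 on Pnpla2-high arrays. The complement components C1qa, C1qb and C1qc, the lysozyme Lyz2 and the adaptor Tyrobp had median differences of 2.28, 2.63, 2.45, 2.71 and 2.96. Cd14 (1.71) was the member whose ranges overlapped. Further genes among the 10 largest differences were Ms4a7, a membrane protein of macrophages (3.74), the chemokine Ccl9 (3.55), the dipeptidase Dpep2 (3.77, above background on 2 of 13 Pnpla2-high arrays) and the signaling receptor Cd84 (3.25, on 8 of 13). The mean of the macrophage list ran from 8.70 to 9.72 over the Pnpla2-low arrays and from 6.49 to 7.34 over the Pnpla2-high arrays. In bulk tissue more cells of a type and more RNA per cell cannot be told apart, and this holds for every cell type marker here.

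Promoters of 2 of these genes are shown because they hold the core motif bound by PU.1, the Ets factor of the myeloid lineage (GAGGAAGT, searched on both strands in the 250 bases before the start). Of the 308 higher genes, 236 matched a RefSeq promoter (GRCm38.p6), and 19 of these (8.05%) held the motif, against 273 of 9866 genes measured (2.77%), 755 of 27025 in the whole table (2.79%) and 1 of 32 lower genes. Capitals mark the motif, which lies on the opposite strand in both.
Mmp12 (chr9:7344147-7344396, + strand): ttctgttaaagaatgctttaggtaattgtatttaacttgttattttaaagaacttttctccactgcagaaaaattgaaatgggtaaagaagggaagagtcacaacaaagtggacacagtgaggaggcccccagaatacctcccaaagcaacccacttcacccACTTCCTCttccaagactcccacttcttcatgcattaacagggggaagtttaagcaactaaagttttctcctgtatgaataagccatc
C1qc (chr4:136892915-136893164, - strand): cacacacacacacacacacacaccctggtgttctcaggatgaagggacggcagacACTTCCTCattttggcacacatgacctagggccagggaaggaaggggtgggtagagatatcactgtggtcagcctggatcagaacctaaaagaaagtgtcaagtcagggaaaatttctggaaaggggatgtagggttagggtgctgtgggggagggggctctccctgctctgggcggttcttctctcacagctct
The match is one of letters and does not show that the factor bound there. The other motifs searched were that of AP-1 (TGACTCA), held by 16 of the 236 higher genes and by 458 of the 9866 measured, and the CLEAR element of lysosomal genes (TCACGTGA), held by 2 of the 236 and 146 of the 9866.

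Antigen presentation by MHC class II was likewise higher, in 8 of 9 genes. H2-Aa, the alpha chain of a class II molecule, had a signal of 9.31, 10.29 and 10.73 on Pnpla2-low arrays and of 7.70, 8.05 and 8.67 on Pnpla2-high arrays. H2-Ab1, its beta chain, was at 10.95 to 12.60 on Pnpla2-low arrays, against 9.11 to 10.05 on Pnpla2-high arrays. The invariant chain Cd74, the master regulator Ciita and the protease Ctss were 2.06, 1.69 and 2.06 higher by their medians, and H2-DMb1, which helps to load peptides, was 2.21 higher. On the Pnpla2-high side Ctss was above background on 3 of 13 arrays and Ciita on 6, so their differences are set in part against background. H2-DMb2 was above background on no array of either set. H2-M2, a nonclassical MHC gene, was at 7.14, 8.12 and 8.95 on Pnpla2-low arrays and at 4.40, 4.74 and 5.63 on Pnpla2-high arrays (above background on 5 of 13), and Ubd, a ubiquitin-like modifier induced by cytokines, at 7.59, 9.11 and 9.31 on Pnpla2-low arrays, against 4.65, 5.79 and 6.91 on Pnpla2-high arrays. T and B cell markers were not among the counted genes (0 of 6), with Cd3d 1.36 higher by its median and ranges that overlapped.

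Matrix genes formed the other large group, with 9 of 18 collagens and matrix genes counted as higher, 12 with no overlap and all 18 medians higher on the Pnpla2-low side. Col1a1, the main chain of type I collagen, was at 7.95, 8.67 and 9.44 on Pnpla2-low arrays, against 6.48, 6.92 and 7.76 on Pnpla2-high arrays. Timp1, an inhibitor of matrix proteases, differed most in the list (8.22 against 5.36 by the medians of Pnpla2-low and Pnpla2-high arrays), and Mmp14, a membrane-bound matrix protease, had medians of 9.67 on Pnpla2-low and 7.60 on Pnpla2-high arrays. The collagen chain Col5a1 was 1.74 higher by its median. Pcolce, which enhances the trimming of procollagen, was at 10.22, 10.98 and 11.19 on Pnpla2-low arrays and at 7.17, 7.80 and 8.41 on Pnpla2-high arrays. Of 11 proliferation genes 3 were counted, namely Mcm5, Cdc20 and Birc5 with median differences of 1.19, 1.43 and 1.5, although Cdc20 was above background on 3 and Birc5 on 5 of the 13 Pnpla2-high arrays. Top2a, a topoisomerase of dividing cells, was above background on all 11 Pnpla2-low arrays and on none of the 13 Pnpla2-high arrays. Its signal was at least 1.41-fold higher by the medians, taking for each Pnpla2-high array the lowest signal above background. Of the 12 genes that the study follows as related to tumors, 3 were counted (Gpnmb, Pcolce and Mmp14), and this list was chosen on these arrays. Its members Cdkn2a (above background on no array of either set) and Mdm2 (0.18 higher by its median) did not separate the sets.

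**Figure D2:**
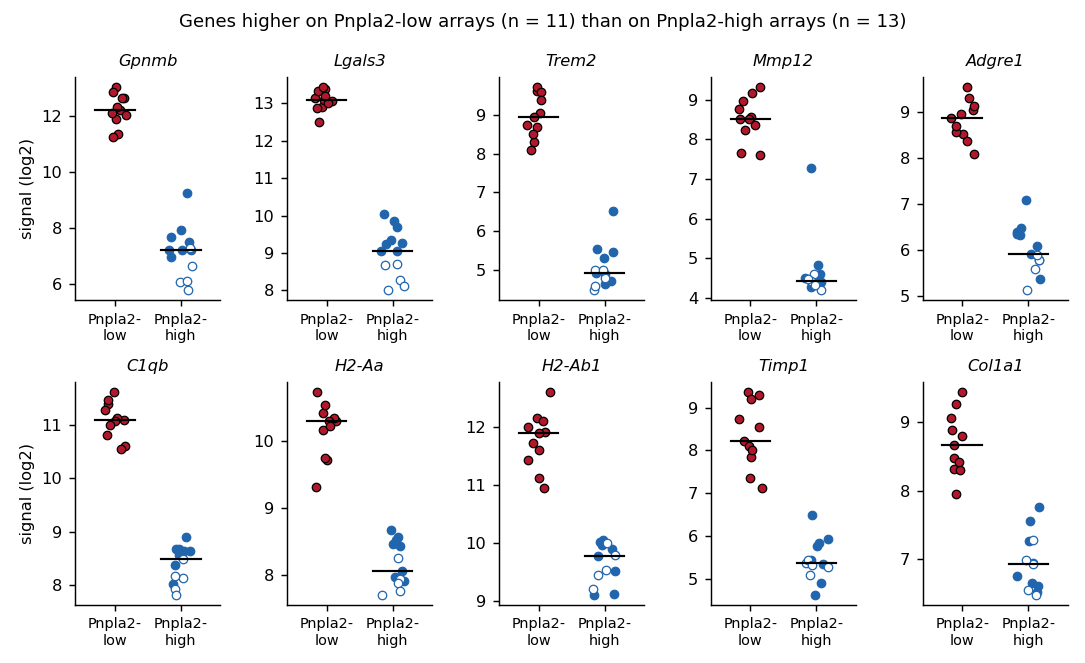
Signals (log2, y axes) of 10 genes of macrophages, antigen presentation and matrix on each Pnpla2-low array (left, n = 11) and each Pnpla2-high array (right, n = 13), with open points for the 5 arrays labelled Control BAT 3 months and bars for the medians. In every panel the lowest Pnpla2-low array lies above the highest Pnpla2-high array.

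Among the 19 measured enzymes and regulators of lipolysis, Pnpla2 was the only one counted, and it had chosen the sets. Plin1, the perilipin that restrains lipolysis on the droplet, was at 8.82, 9.33 and 9.56 on Pnpla2-low arrays and at 9.75, 10.09 and 10.58 on Pnpla2-high arrays, with no overlap except under scaling to a common median. G0s2, the inhibitor of ATGL, had the largest median difference of the list (-2.30), with 7.51, 8.45 and 10.23 on Pnpla2-low arrays against 9.64, 10.75 and 11.36 on Pnpla2-high arrays. Its ranges overlapped through the array labelled DAKO BAT 3 months replicate 5, at 10.23. Abhd5, the coactivator of ATGL, was at 9.02 to 9.94 on Pnpla2-low arrays and 8.75 to 9.88 on Pnpla2-high arrays, and Mgll at 11.06 to 12.17 on Pnpla2-low arrays and 11.46 to 12.04 on Pnpla2-high arrays. The droplet proteins Cidec, Plin5 and Cidea had median differences of -0.78, -0.57 and -0.45, Plin2, Plin3 and Plin4 of -0.06, -0.19 and 0.16, and Hilpda, another ATGL inhibitor, of 0.38. The fatty acid carriers Fabp4 and Fabp5, the glycerol channel Aqp7 and the lipases Abhd6 and Ces1d differed by -0.39 to -0.05, and Faf2, which acts on ATGL turnover, by -0.13. All of these overlapped.

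Most genes of fatty acid oxidation and most PPAR targets had the lower median on the Pnpla2-low arrays. Counted as lower were 1 of 24 and 2 of 22, where 41 of all 12265 genes measured were (0.334%). Ppara, the receptor that drives oxidation genes, was at 5.13, 5.52 and 5.78 on Pnpla2-low arrays, against 6.44, 6.97 and 7.57 on Pnpla2-high arrays, a 2.75-fold difference that kept its gap under every scaling. It was the only one counted among 12 PPAR receptors and coregulators. Of these 5 had the higher median, the list means overlapped (8.15 to 8.46 on Pnpla2-low and 8.31 to 8.73 on Pnpla2-high arrays), and the list median of -0.23 became 0.02 under scaling to a common median. The 2 PPAR targets counted as lower were Ehhadh and Ucp3. Ehhadh, a peroxisomal oxidation enzyme, was at 5.37, 5.81 and 6.84 on Pnpla2-low arrays, against 7.00, 7.44 and 8.31 on Pnpla2-high arrays. Ucp3, a mitochondrial carrier, was at 4.92, 5.82 and 6.10 on Pnpla2-low arrays, against 6.98, 7.29 and 8.20 on Pnpla2-high arrays. Ehhadh overlapped under scaling to a common median. Within 24 genes of fatty acid oxidation, 22 had the lower median on the Pnpla2-low side. Crat, Eci2 and Acadl, enzymes of acylcarnitine and acyl-CoA handling, were lower by 0.84, 0.73 and 0.67 with no overlap, a gap that each lost under scaling to a common median. The mean of the oxidation list ran from 10.94 to 11.34 over Pnpla2-low arrays and from 11.47 to 11.92 over Pnpla2-high arrays, and that of the PPAR targets from 7.84 to 8.16 over Pnpla2-low arrays and from 8.22 to 9.03 over Pnpla2-high arrays. Both gaps also closed under that scaling. Acot1, a PPAR target that hydrolyses acyl-CoA, read 6.00, 7.42 and 8.46 on Pnpla2-low arrays and 7.74, 8.84 and 10.96 on Pnpla2-high arrays, with overlap.

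Fatty acid and triglyceride synthesis had the lowest list median of all 27 lists (-0.56 over 23 genes). Dgat2, which makes triglyceride, was at 11.49, 12.26 and 12.63 on Pnpla2-low arrays, against 13.05, 13.37 and 13.79 on Pnpla2-high arrays. The lipogenic regulators Srebf1 and Thrsp and the fatty acid synthase Fasn had median differences of -1.10, -1.04 and -0.95 and overlapped. Nrg4, a factor secreted by brown adipocytes, was at 8.64, 8.95 and 9.31 on Pnpla2-low arrays and at 9.51, 9.89 and 10.65 on Pnpla2-high arrays. Pdk1, a kinase that holds back pyruvate oxidation, was 0.80 lower by its median with no overlap. Among the 10 largest differences were Tspan18, a tetraspanin (median 6.27 on Pnpla2-low and 8.48 on Pnpla2-high arrays), Mmd2 (6.48 on Pnpla2-low, 8.53 on Pnpla2-high), Kcp, a secreted modulator of BMP signaling (6.26 on Pnpla2-low, 8.26 on Pnpla2-high), and the RNA-binding protein Ybx2 (7.07 on Pnpla2-low, 8.69 on Pnpla2-high). Rspo4 and Axin2, which belong to Wnt signaling, Fhdc1, a formin, and Sugct, a CoA transferase, were lower by 1.86, 1.61, 1.82 and 1.5. Of these 8, Tspan18, Kcp and Ybx2 kept the gap under scaling to a common median, as did Dgat2 and Nrg4, while Pdk1 did not.

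**Figure D3:**
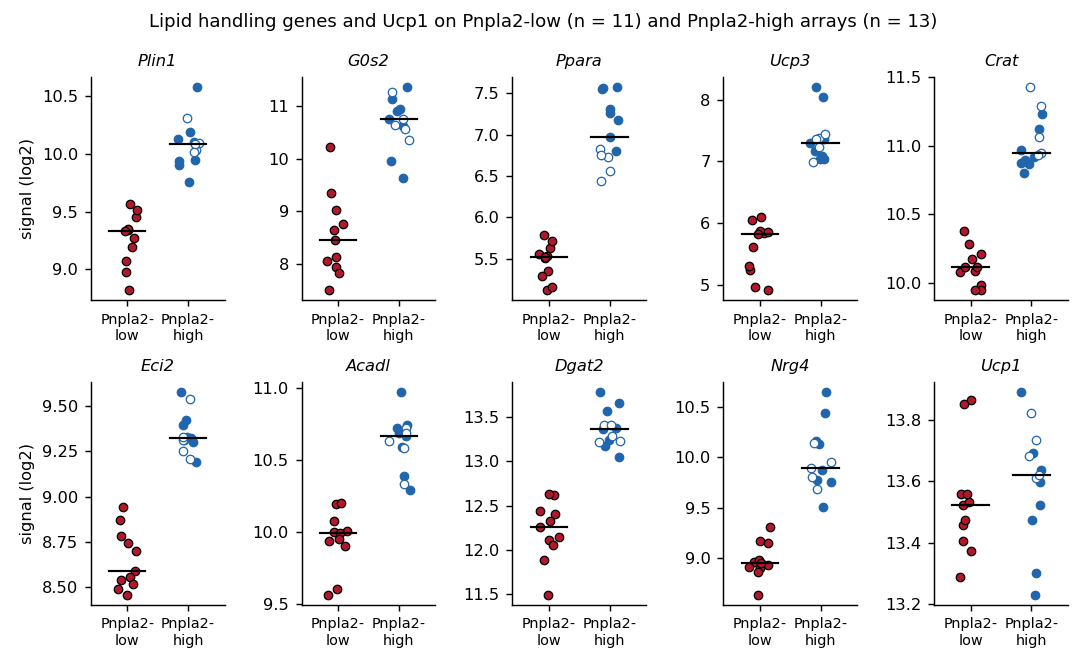
Signals (log2, y axes) of lipid handling genes, Nrg4 and Ucp1 on each Pnpla2-low array (left, n = 11) and each Pnpla2-high array (right, n = 13), with open points for the 5 arrays labelled Control BAT 3 months and bars for the medians. G0s2 and Ucp1 overlap, and the other 8 genes do not.

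Brown fat identity did not separate the sets, Ucp1 having been used to choose them. None of 16 genes of brown adipocytes was counted, nor any of 68 genes of the respiratory chain and ATP synthase. Of these, 5 and 6 had the higher median on Pnpla2-low arrays. Their list medians were -0.18 and -0.20, and the list means overlapped (9.30 to 9.96 on Pnpla2-low arrays and 9.28 to 10.04 on Pnpla2-high arrays for brown identity). None of 16 TCA cycle genes was counted, and 4 had the higher median. The mean of that list ran from 10.82 to 11.08 on Pnpla2-low and from 11.09 to 11.31 on Pnpla2-high arrays. These ranges overlapped under every other normalization. Ppargc1a, a coactivator of mitochondrial genes, was 1.27 higher by its median and overlapped. Adipoq, the adipocyte hormone adiponectin, was at 12.39 to 12.85 on Pnpla2-low arrays and 12.16 to 12.87 on Pnpla2-high arrays. Lysosomal genes (0 of 17 counted, though Hexa, a lysosomal hexosaminidase, was 0.84 higher with no overlap), stress response genes (0 of 19), endothelial genes (0 of 7) and white adipocyte genes (0 of 7) also held no counted member. Within the stress list Atf3, a stress-induced transcription factor, and Psat1, an enzyme of serine synthesis, were 2.17 and 1.76 higher by their medians with overlap, Atf3 being above background on 6 of 13 Pnpla2-high arrays. The mean of the stress list was 7.83 to 8.15 on Pnpla2-low arrays and 7.34 to 7.76 on Pnpla2-high arrays, with 14 of 19 medians higher. The means did not overlap here or under a common median, but did under the other 3 normalizations.

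Markers of neighboring tissues were read beside these values. None of 9 mesothelial markers was counted, and 5 of them were above background on no array of either set. The mean of 11 skeletal muscle genes ran from 8.93 to 13.28 over Pnpla2-low arrays and from 5.96 to 12.80 over Pnpla2-high arrays, and the genes that varied most among the 11 Pnpla2-low arrays were led by the slow muscle genes Myl2 (5.70 to 13.23) and Tnnc1 (5.64 to 12.72). The part of muscle in the counts was not tested. Within the Pnpla2-high set, the 5 arrays labelled Control BAT 3 months stood apart from the other 8 in 82 genes that were higher and 27 that were lower. Set against those 5 alone, the Pnpla2-low arrays had 473 genes higher and 111 lower, and against the other 8 they had 344 higher and 60 lower. The macrophage list mean was 6.49 to 6.87 on the 5 and 6.66 to 7.34 on the 8, below the lowest Pnpla2-low value of 8.70 in both.

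**Figure D4:**
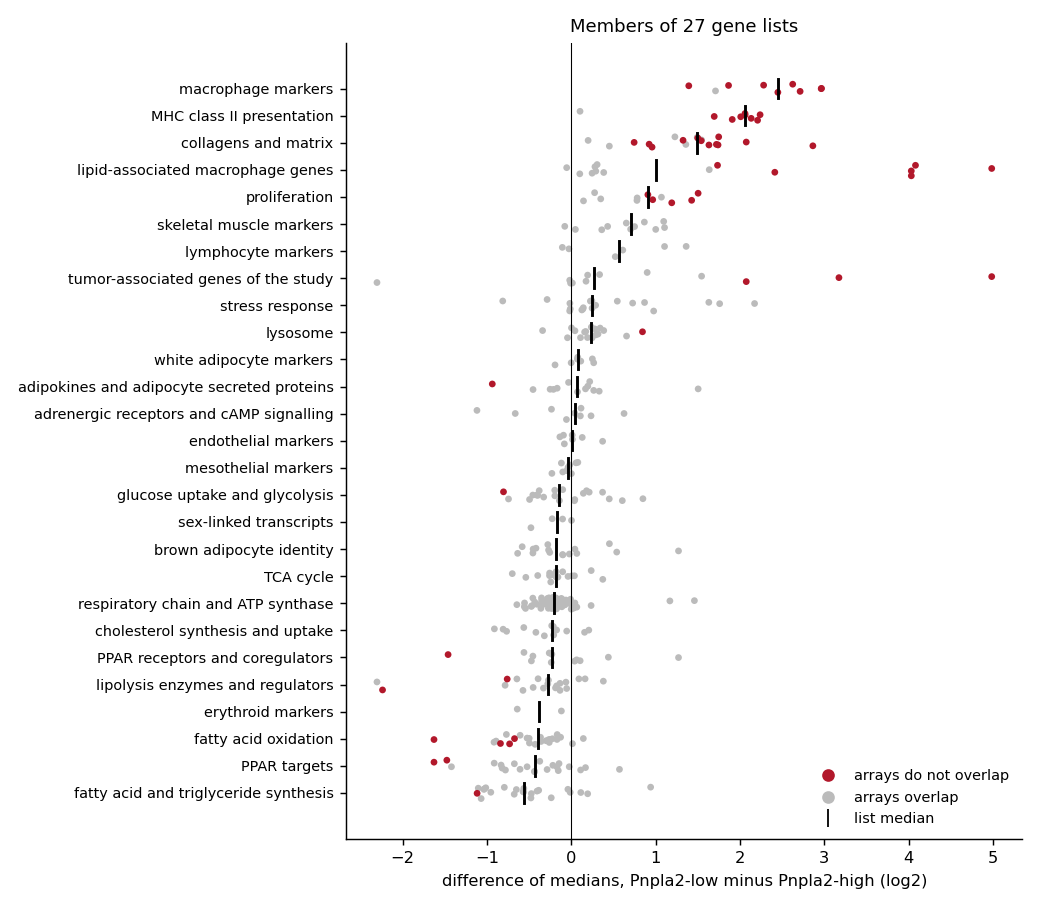
Difference of the medians, Pnpla2-low minus Pnpla2-high (log2, x axis), for each measured member of 27 gene lists (rows, ordered by the list median), with red points for genes whose arrays do not overlap between the sets and bars for list medians. Macrophage markers lie at the top with a median of 2.45 and triglyceride synthesis at the bottom with -0.56.

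The 2 genes that follow Pnpla2 on chromosome 7 were higher on Pnpla2-low than on Pnpla2-high arrays. In RefSeq's gene order Cracr2b, a regulator of store-operated calcium entry, is the next protein-coding gene after Pnpla2, and Cd151, a tetraspanin, the one after it. Cracr2b was at 9.04, 9.51 and 10.53 on Pnpla2-low arrays, against 6.54, 7.06 and 8.02 on Pnpla2-high arrays, a median difference of 2.45. Its second probe gave 8.07, 8.54 and 9.44 on Pnpla2-low arrays, against 5.59, 6.18 and 7.04 on Pnpla2-high arrays. Cd151 was at 12.14, 12.45 and 12.65 on Pnpla2-low arrays and at 10.95, 11.38 and 11.94 on Pnpla2-high arrays, a gap that closed under scaling to a common median. On Lipe-low arrays Cracr2b lay between 7.18 and 8.60, below all Pnpla2-low arrays, and on the 7 arrays low in both lipases between 8.42 and 10.32. Cd151 was at 11.24 to 12.09 on Lipe-low arrays with a median of 11.90, above the Pnpla2-high median although Pnpla2 was at 13.30 to 14.19 there. Of these 7 arrays low in both lipases, the 2 just outside the Lipe limit, labelled ATGLAKO BAT 3 months replicates 4 and 5, had Cracr2b at 10.32 and 10.22. The others of the 7 had Cracr2b at 8.42 to 9.26, with Pnpla2 at 10.02 to 11.08. Of the 29 measured genes within 25 genes on either side of Pnpla2, these 2 were counted as higher and 0 as lower. Of 36 around Lipe, which is on the same chromosome, 1 was (B3gnt8, 1.09). Cracr2b and Cd151 were singled out after their values were seen.

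**Figure D5:**
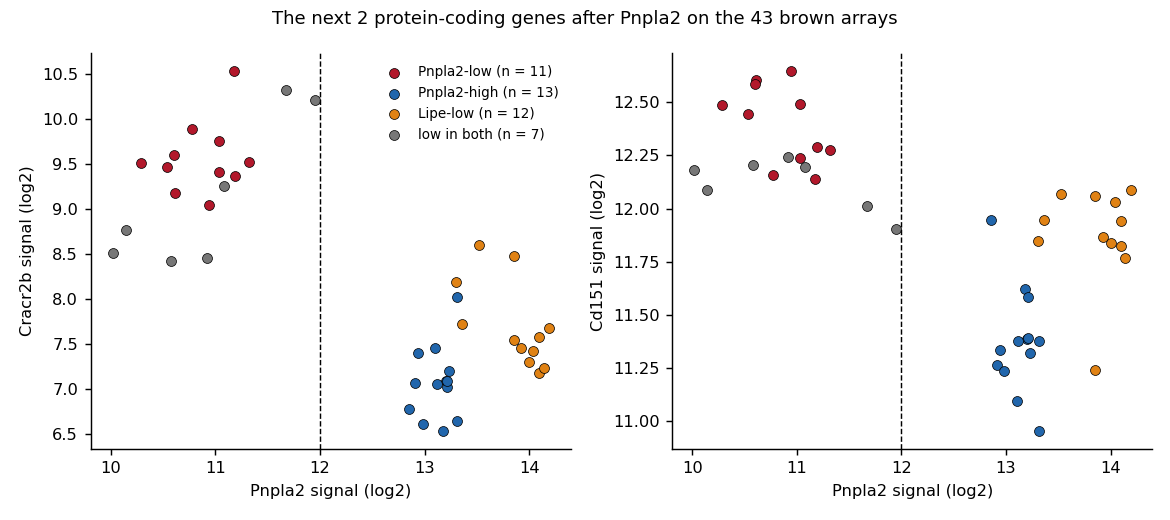
Signals of Cracr2b (left panel, log2, y axis) and Cd151 (right panel, log2, y axis) against Pnpla2 (log2, x axes) on the 43 brown arrays, colored by set, with a dashed line at 12. The Pnpla2-low arrays have Cracr2b at 9.04 to 10.53 and the Pnpla2-high arrays at 6.54 to 8.02.

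Few genes separated the Pnpla2-low from the Lipe-low arrays. Of the 308 genes that were higher on Pnpla2-low than on Pnpla2-high arrays, 170 had every Lipe-low array above every Pnpla2-high array too, while of the 41 lower genes 3 had every Lipe-low array below. Gpnmb, for example, was at 9.61 to 12.46 on Lipe-low arrays and Lgals3 at 11.43 to 13.10, overlapping the Pnpla2-low arrays, whereas Ppara was at 5.44 to 7.70 with a median of 6.90, close to the Pnpla2-high median. Between Pnpla2-low and Lipe-low arrays only 14 genes were higher (0.114%) and 19 lower (0.155%) with no overlap and medians over 1 apart, Lipe and Pnpla2 among them. H2-M2 (8.12 on Pnpla2-low and 6.01 on Lipe-low arrays by the medians) and Pcolce (10.98 on Pnpla2-low and 9.53 on Lipe-low arrays) were higher on Pnpla2-low arrays than on Pnpla2-high and Lipe-low arrays. On the 7 arrays low in both lipases, however, Pcolce was at 9.91 to 11.01 and H2-M2 at 5.71 to 7.84, overlapping the Pnpla2-low arrays. For H2-M2 this overlap came from ATGLAKO BAT 3 months replicate 4 (7.84), which was just outside the Lipe limit, as was replicate 5 (7.02). The others of the 7 had H2-M2 at 6.48 or less, below every Pnpla2-low array.

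These 33 genes were unevenly spread over the chromosomes: 15 (45.5%) were on chromosome 7, which holds Pnpla2 and Lipe and 8.33% of the genes measured, and 8 (24.2%) were on chromosome 9, which holds 5.87%. The 15 include Pnpla2 and Lipe, whose signals chose the sets. Of the 13 on chromosome 7 besides Pnpla2 and Lipe, 12 had overlapping ranges on Pnpla2-low and Pnpla2-high arrays. So did most genes: of the 12265 measured, 421 were higher and 146 lower with no overlap between these sets. Psmd8, a proteasome subunit, was at 10.96 to 11.39 on Pnpla2-low arrays, 10.58 to 11.43 on Pnpla2-high arrays and 7.10 to 8.17 on Lipe-low arrays. Ctsc, the protease cathepsin C, was at 4.88 to 5.64 on Pnpla2-low arrays, 4.26 to 5.77 on Pnpla2-high arrays and 8.21 to 9.97 on Lipe-low arrays. Of the adult beta globins, Hbb-b2 was higher (6.71 to 8.31 on Pnpla2-low and 4.36 to 5.23 on Lipe-low arrays) and Hbb-bt lower (4.64 to 5.90 on Pnpla2-low and 7.16 to 10.09 on Lipe-low arrays). These 2 genes are close copies, and their signals went opposite ways between the sets, the cause of which was not tested. Gdpd3 was at 9.77 or more on 10 Pnpla2-low arrays and at 5.66 on the remaining one, labelled DAKO WAT 3 months replicate 4. All 7 Pnpla2-low arrays labelled DAKO thus read Psmd8 and Ctsc like the Pnpla2-high arrays and unlike the Lipe-low arrays. These genes were chosen after their values were seen. Between Pnpla2-low and Pnpla2-high arrays, by contrast, 31 of the 349 counted genes (8.88%) were on chromosome 7, close to its share of the genes measured.

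Over the 24 arrays of both sets, the genes most like Pnpla2 by Pearson correlation were Atg16l1, an autophagy protein (0.94), the cytokine Ctf1 (0.93), Timm21, a subunit of the mitochondrial import machinery (0.93), Lrba, a vesicle protein (0.93), and Acp6, a lysophosphatidic acid phosphatase (0.92). The points fall into both sets, and each array's values share one scaling. Within the 11 Pnpla2-low arrays the coefficients were 0.35, 0.71, -0.27, -0.22 and -0.15 in the same order, and within the 13 Pnpla2-high arrays 0.17, 0.68, 0.54, 0.52 and -0.13, so that Ctf1 alone had a coefficient over 0.6 in both.

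Tests were made between the labelled groups that ask for the effect of ATGL deficiency in BAT, ATGLAKO against Control at 3, 7 and 12 months. A gene was called at an adjusted p under 0.01 (limma, Benjamini-Hochberg) and a log2 fold change over 1.5. Pnpla2 itself was not called. It averaged 12.26 ± 0.95 (SD, n = 5) on arrays labelled ATGLAKO BAT 3 months and 13.10 ± 0.18 (n = 5) on those labelled Control (limma adjusted p = 0.757). At 7 months it averaged 12.41 ± 1.5 on ATGLAKO and 11.98 ± 1.82 on Control arrays, and at 12 months 12.02 ± 1.31 on ATGLAKO and 11.60 ± 1.15 on Control arrays (SD, n = 4 each), so the signal of the targeted gene did not bear out the labels. At 3 months the ATGLAKO arrays read 13.20, 13.31, 11.18, 11.67 and 11.95 for Pnpla2 against 13.31, 12.94, 12.91, 13.10 and 13.23 on Control arrays: 2 of the 5 lay within the Control range and 3 below it. Of these 3, replicate 3 is a Pnpla2-low array and the other 2 had Lipe under 8.5.

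At 3 months 11 of 12265 genes were called (0.0897%), 2 of them up and 9 down in ATGLAKO. Of the 308 genes higher and the 41 lower on Pnpla2-low arrays, 0 were called in that direction at any age, with few genes called in all. The 308 had a median log2 fold change of 1.04 at 3 months, -1.27 at 7 months and -0.71 at 12 months, and the 41 of -0.83, 0.73 and 0.67. The 3-month comparison shares 8 of its 10 arrays with the sets, so its values are not independent of them. Gpnmb averaged 10.12 ± 2.69 in ATGLAKO and 6.39 ± 0.59 in Control at 3 months (limma adjusted p = 0.075), and Lgals3 averaged 11.36 ± 1.94 in ATGLAKO and 8.36 ± 0.31 in Control (limma adjusted p = 0.022). For Lgals3 the 3 ATGLAKO arrays with Pnpla2 under 12 read 13.07, 12.32 and 12.88 and the others 9.24 and 9.28. Acot1 fell by 2.69 ± 0.55 (SE) on the log2 scale, with 7.74, 9.54, 6.00, 8.01 and 8.45 on ATGLAKO arrays, against 10.58, 10.87, 10.96, 10.86 and 9.92 on Control arrays (limma adjusted p = 0.0048), and the groups did not overlap. Gpc1, a cell surface proteoglycan, rose by 2.33 ± 0.49, with a lowest, median and highest value of 9.97, 10.83 and 11.19 on ATGLAKO arrays and 8.12, 8.37 and 8.42 on Control arrays (limma adjusted p = 0.0064). In both genes the ATGLAKO arrays with and without low Pnpla2 stood on the same side of the Control BAT arrays. So did the brown array labelled Control WAT 3 months replicate 2, with Gpc1 at 10.06 and Acot1 at 8.79. Lipe-low arrays had Gpc1 at 8.93 to 11.55 and Acot1 at 6.88 to 10.08, so these values do not belong to the ATGLAKO label alone. Epdr1 also rose, and the kinase Sgk2, Fgl1, the sodium channel subunit Scnn1g and Hip1r fell by 1.63 to 1.92. The 11 calls became 3 without ATGLAKO replicate 3, 6 and 7 without Control replicates 2 and 4, and 21 without ATGLAKO replicate 2, and 53 when the 2 groups were fitted alone.

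At 7 months 0 genes were called (0%; limma, 1698 genes had an unadjusted p under 0.05), and at 12 months 48 (0.391%), 2 up and 46 down in ATGLAKO. All 8 arrays labelled Control BAT at 7 or 12 months had Ucp1 at 11 or less, whereas 2 of 4 ATGLAKO arrays at 7 months and 3 of 4 at 12 months were brown. Both comparisons thus set brown against other tissue in part, which cannot be told apart from genotype. The largest changes at 12 months were in Cldn10, Cuzd1, Cdhr5, Pdzk1 and Cdh16, which fell by 3.69 to 4.29. Cldn10, a tight junction protein, read 4.32, 4.63, 4.67 and 7.92 on ATGLAKO arrays and 9.98, 7.89, 11.28 and 9.55 on Control arrays (limma adjusted p = 0.0066), and on the Pnpla2-low arrays it was at 4.59 to 6.05. Cmtm4 and Rcc1l rose by 1.76 and 1.59. The 48 calls became 1 without Control replicate 1 or 3 or without ATGLAKO replicate 1 or 3, 4 without ATGLAKO replicate 2, 135 without Control replicate 2 and 360 without ATGLAKO replicate 4, the array of this group that was not brown, and 0 when the 2 groups were fitted alone.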

How the data were processed

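The 72 Illumina MouseRef-8 v2.0 arrays fall into 17 labelled groups of 3 to 5. RNA was extracted with a lipid tissue kit. The authors deposited the bead signal of each probe as a linear intensity without normalization, beside a detection p-value against negative control beads, and a second table of normalized intensities (linear, 142.6 to 19393.3). How these were normalized is not given in the sources used here. Raw signals were corrected and quantile normalized with neqc (offset 16) in limma 3.58.1 (R 4.3.3), giving log2 values. Probes were kept where 3 or more arrays had a detection p below 0.05, which left 18083 of 25697, and each of 12265 genes was given by its probe with the highest mean. Platform annotation gave a symbol to 23978 probes. The number of arrays limits the precision, and 0 pairs of arrays were identical. Within each group the sample names carry different animal numbers. The p-values rest on a spread pooled for each gene over all 17 groups, some of which mix brown and other arrays. For Ucp1 at 3 months the SE was 1.96, with SDs of 0.44 in ATGLAKO and 0.09 in Control BAT. Arrays of different groups that share an animal number were treated as independent.

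Sets of arrays were chosen by their Ucp1, Pnpla2 and Lipe signals, and no test was made between them. Labelled groups were compared in 1 limma fit of all groups (55 residual degrees of freedom). The scripts were tested on simulated data. The arrays, the gene lists and the genes around them were chosen with earlier results of these data known. Named were Pnpla2, Lipe and Ucp1, all measured lipolysis genes, the 10 largest median differences in each direction among genes that did not overlap, the 4 largest without overlap in each of 27 lists, the 5 largest rises and falls called in each labelled comparison, and the 5 genes most like Pnpla2. Others are named as list members or after their values were seen. Alternatives were other normalizations, filters, limits, subsets of arrays, a replicate block, other fits and leaving out each array.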

Additional observations from a re-analysis of the deposited data

Results flagged for a closer look

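In 46 groups of values of Pnpla2, Lipe, Ucp1 and the called genes on arrays labelled ATGLAKO or Control BAT, 9 had a single array far from the others by Dixon's test, where chance gives about 1 in 20. Of these, 5 were on ATGLAKO BAT 12 months replicate 4, the array of that group without a brown signal: Ucp1 was at 6.65 there (others 13.23 to 13.52), Cmtm4 at 6.08 (8.13 to 8.48), Cldn10 at 7.92 (4.32 to 4.67), Cdhr5 at 5.45 (4.39 to 4.54) and Pdzk1 at 5.41 (4.33 to 4.43). The group's Pnpla2-low array, replicate 3, lay with the other 2 in all 5 genes. Pnpla2 was at 10.17 on ATGLAKO BAT 7 months replicate 2, against 12.98 to 13.29 on the other 3, and that array, like replicate 1 of that group, lacked a brown signal. Fgl1 was at 6.24 on ATGLAKO BAT 3 months replicate 5 (others 4.28 to 4.79), Epdr1 at 6.21 on Control BAT 3 months replicate 3 (5.39 to 5.52) and Rcc1l at 4.84 on Control BAT 12 months replicate 1 (5.19 to 5.22). Among 42 differences of the ATGLAKO effect between ages, Scnn1g differed by 2.46 between 12 and 3 months (limma interaction, adjusted p = 0.0015), being lower in ATGLAKO at 3 months.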

How the results depend on the processing

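Between the Pnpla2-low and Pnpla2-high arrays, 308 genes were higher and 41 lower. The higher genes numbered 93 with the authors' normalized values, 141 without background correction, 175 with a median difference over 1.5, 201 with a Lipe limit of 8 and 473 against the Control BAT 3 months arrays alone. The lower genes numbered 4 with the authors' values, 8 with no background correction, 22 at offset 50, 8 under a common median, 9 with a median difference over 1.5, 146 with no minimum difference, 75 among 3-month arrays, 74 among BAT arrays other than those of 14 months, and 111 against the Control BAT 3 months arrays alone. Leaving out 1 of the 24 arrays gave 303 to 347 higher and 40 to 50 lower genes. Some of these subsets were added after seeing the data.

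Between labelled groups, the 11 genes called at 3 months became 1 with the authors' values, 1 with uncorrected background, 5 at offset 50, 2 under a common median, 53 with only the compared groups, 75 with array weights, 44 with no fold minimum and 182 at an adjusted p under 0.05 with no fold minimum. Leaving out an array gave 3 to 21. At 7 months the 0 calls became 1 with array weights and 0 to 2 with an array left out. At 12 months the 48 calls became 5, 11, 19 and 134 under those 4 normalizations, 0 with only the compared groups, 798 with array weights, 90 with no fold minimum and 597 at an adjusted p under 0.05 with no fold minimum, and 1 to 360 with an array left out. The array weights did not fully converge. The causes were not tested, beyond fewer arrays or other limits where these define the setting. With the replicate number as a block, 11, 0 and 45 genes were called at 3, 7 and 12 months. Same-numbered arrays correlated between -0.38 and 0.22 in their deviations from the group means, so the numbers do not pair the arrays. No called gene named here changed direction in the settings where it was checked. Nor did the genes named by rule that did not overlap between the sets, or G0s2, Cracr2b and Cd151. Other named genes were not checked in this way. Under a common median, however, the median difference over all genes was 0.06 in place of -0.02, and that of the PPAR receptors and coregulators 0.02 in place of -0.23. The few arrays per set, signals near background (4 to 5 on the log2 scale) and labels that did not match the lipase signals limit what can be read from these comparisons.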
